A study of Drosophila melanogaster with 4 samples.

Results

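The glycolytic enzyme genes are 10 genes, Hex-A, Pgi, Pfk, Ald1, Tpi, Gapdh1, Gapdh2, Pgk, Eno and PyK, chosen by gene symbol as the enzymes that carry glucose to pyruvate. All 10 were found among the 7451 genes listed in at least 1 of 4 deposited tables. Each table came from 1 single-cell RNA library of Drosophila melanogaster wing imaginal discs at the L3 larval stage, made from 100 to 120 pooled discs, and set GFP-positive against GFP-negative cells. The libraries were Control (ap-Gal4>GFP/+), Cdk8-CycC depletion (UAS-Cdk8i-cycCi added), Med12 depletion (UAS-Med12i added) and Cdk8-CycC-Med12 depletion (UAS-Cdk8i-cycCi-Med12i added), each with 1 library, and the last is called the combined depletion below. Every genotype carried the ap-Gal4 driver, which acts in dorsal cells of the disc, and a GFP transgene, so GFP-positive cells are taken to express the RNA interference construct and GFP-negative cells of the same discs are not. The targets belong to the CDK8 kinase module, a dissociable part of the Mediator complex that bridges transcription factors and RNA polymerase. The series asked how its subunits affect proliferation and tissue size.

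Glycolysis splits glucose into pyruvate in the cytoplasm. Its upper steps phosphorylate and rearrange the sugar at the cost of ATP, aldolase cuts it into triose phosphates, and the lower steps regain ATP and NADH. In Drosophila larvae the pathway is known to be raised as a set, together with lactate dehydrogenase, by the nuclear receptor ERR, and proliferating tissues often run it to lactate even with oxygen present. Human and fly studies have linked the CDK8 module to metabolic transcription, but that link is background here and not a result.

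Several facts of the tables bear on every value. The log2 fold is the mean expression of GFP-positive over GFP-negative cells, so a value above 0 is higher in GFP-positive cells. It was converted from the fold in the authors' deposited tables, whose base is not stated and was taken as the natural log. A gene was listed in a table only when its p-value over cells was below 0.01, so an unlisted gene has no value. With 1 library per genotype there is no replicate error and no test, and a gene was called past the size rule at a fold of at least 1.3 (0.38 on the log2 scale) and detection in 10% of cells or more in either set. Shares of genes past the rule are over the genes that meet this detection minimum. Between 98.5% and 99.4% of listed genes were detected more often among GFP-positive cells, whichever set had the higher mean. In the authors' deposited tables nub, a wing pouch gene, was detected in 100% of both sets, and GFP in 100% of one set and 0% of the other in every library, so all cells compared were nub-positive, and the sets follow GFP detection. The log2 fold of nub was -0.36, -0.33, -0.45 and -0.52 in Control, Cdk8-CycC, Med12 and combined depletion, past the size rule given above in the last 2. Another wing pouch gene, vg, had -0.03, -0.08, 0.18 and 0.22 in the same order. Of the other pouch markers, rn had -0.26 and -0.25 and Dll 0.01 and 0.07 in Control and Cdk8-CycC depletion. Neither was listed in the libraries with Med12 depletion. In the authors' deposited tables the dorsal gene ap was found in 62.6% to 68.1% of GFP-positive against 5.3% to 7.2% of GFP-negative cells. None of 5 hemocyte markers was listed in any table. Of the myoblast markers twi, Him and zfh1 were not listed, Mef2 was found in 33.9% to 65.3% of cells under Cdk8-CycC and combined depletion and not listed in the other libraries, and ct in 10.1% to 18.2% of any set, by the authors' deposited tables. Of the tracheal markers btl was not listed, trh was found in 26.2% to 35.1% of cells in both libraries with Med12 depletion, and vvl, which wing disc cells also express, in 87.5% to 94.3% of any set, with log2 folds of -0.39, -0.41, -0.81 and -1.03, again from the authors' deposited tables. Of 3 peripodial markers upd was not listed under that symbol, and odd reached at most 8.0% of any cell set. The remaining marker, Ubx, was found in 88.1% to 96.0% of GFP-positive against 18.6% to 39.7% of GFP-negative cells by the authors' deposited tables. The log2 fold of Ubx was 4.62, 3.86, 4.58 and 4.51 in Control, Cdk8-CycC, Med12 and combined depletion. GFP and Ubx held the top 2 ranks in every library, Control included. Of the notum markers, mirr was found in 36.5% to 42.3% of GFP-positive against 21.8% to 28.9% of GFP-negative cells by the authors' deposited tables. The others, tup and eyg, reached at most 13.6% of any set. The source of the Ubx difference and the part of all such cells in the results were not tested. Of the targeted genes, CycC had log2 folds of -0.24 and -0.21 and Cdk8 of -0.06 and -0.08 in the 2 libraries with the Cdk8-CycC construct, and kto, the gene of Med12, had -0.15 and -0.22 in the 2 with the Med12 construct. In the libraries without the matching construct these genes lay between -0.01 and 0.10.

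All 10 enzyme genes were higher in GFP-positive cells of the Med12 and the combined depletion libraries. The Control table listed 6 of them, all higher, and the Cdk8-CycC table listed 6, of which 4 were higher and 2 lower. The median log2 fold over listed members was 0.11 in Control, 0.05 under Cdk8-CycC depletion, 0.20 under Med12 depletion and 0.15 under combined depletion. Over all listed genes the median was 0.00, 0.02, 0.02 and 0.02, and 55.8%, 77.6%, 73.9% and 76.1% of genes lay above 0. The member medians cover different genes, so they are not comparable between libraries. Tpi and Pgk were listed in Control but not under Cdk8-CycC depletion, and Ald1 and Gapdh2 the reverse. Over the 4 members in both of these tables the median difference was 0.00. The size rule was passed by 2 of 10 members under Med12 depletion (Eno and Gapdh1), against 1.23% of genes, and by 1 of 10 under combined depletion (Eno), against 0.91%. It was passed by 0 of 6 members in Control, against 0.396% of genes, and by 0 of 6 under Cdk8-CycC depletion, against 0.578%. No p-value belongs to these counts, as there is no test. Members were found in 53.5% to 98.7% of cells, so they were more widely detected than most genes. The median share of all listed genes in GFP-positive cells was 34.1% in Control and 51.2% under Med12 depletion. The deposited fold is taken to understate differences of weakly expressed genes. Members and all genes are therefore not matched here or below, and the part of this in the counts, medians and ranges was not tested.

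**Figure D1:**
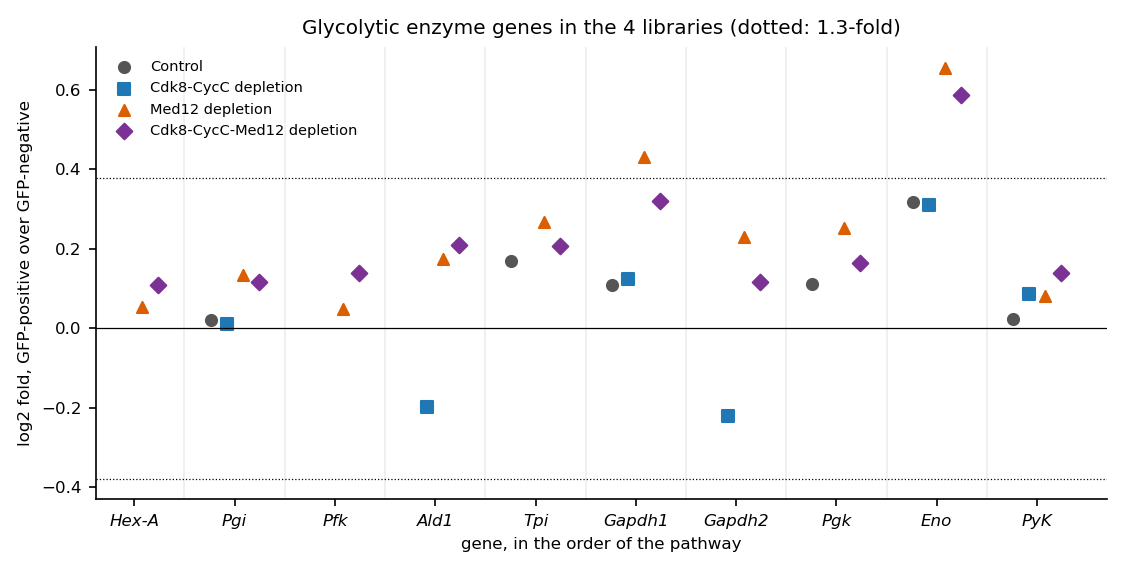
The plot gives the log2 fold of mean expression, GFP-positive over GFP-negative cells (vertical axis), for each glycolytic enzyme gene in pathway order (horizontal axis), with 1 symbol per library and no symbol where a table did not list the gene. Eno is the highest gene in all 4 libraries, and Ald1 and Gapdh2 lie below 0 under Cdk8-CycC depletion (-0.20 and -0.22) and above 0 in both libraries with Med12 depletion.

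The upper steps, which prime the sugar, had small folds. Hex-A (FBgn0001186), the hexokinase that traps glucose in the cell, was listed in both libraries with Med12 depletion only, at a log2 fold of 0.05 under Med12 and 0.11 under combined depletion. In the authors' deposited tables it was detected in 91.4% of GFP-positive against 85.4% of GFP-negative cells under Med12 depletion, and in 94.1% against 85.1% under combined depletion. Pfk (FBgn0003071), the phosphofructokinase that commits sugar to the pathway, was likewise listed in these libraries only, at log2 folds of 0.05 and 0.14. Its detection shares in the authors' deposited tables were 79.7% against 67.7% under Med12 depletion and 79.3% against 62.7% under combined depletion. For both genes the fold was higher in the combined than in the Med12 library, and Pfk had the wider gap in detection of the pair.

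Pgi (FBgn0003074), the isomerase between glucose and fructose phosphates, was listed in all 4 tables. Its log2 fold was 0.02 in Control, 0.01 under Cdk8-CycC, 0.14 under Med12 and 0.12 under combined depletion. The libraries thus fell into a low pair, Control and Cdk8-CycC, and a high pair, both with Med12 depletion. The authors' deposited tables found Pgi in 65.0% of GFP-positive against 53.5% of GFP-negative cells in Control, 68.3% against 54.4% under Cdk8-CycC, 81.1% against 67.2% under Med12 and 81.0% against 62.9% under combined depletion. It was the least widely detected of the 6 members listed in Control.

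The gap between GFP-positive and GFP-negative shares of Pgi was 11.5 percentage points in Control, 13.9 under Cdk8-CycC, 13.9 under Med12 and 18.1 under combined depletion. The gap was widest in the combined library. Library depth is unknown, and its part in the shares was not tested. Over genes listed in both tables, the share in GFP-negative cells had a median ratio to Control of 1.11 under Cdk8-CycC, 1.59 under Med12 and 1.52 under combined depletion, against 1.02, 1.26 and 1.18 for Pgi.

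Ald1 (FBgn0000064), the aldolase that splits fructose bisphosphate, lay on opposite sides of 0 in different libraries. It was not listed in Control, and its log2 fold was -0.20 under Cdk8-CycC depletion, 0.18 under Med12 and 0.21 under combined depletion. Under Cdk8-CycC depletion it held rank 53 from the lowest of 6799 listed genes, whereas it held rank 190 from the highest of 5568 under Med12 and rank 136 of 6377 under combined depletion. In the authors' deposited tables it was nevertheless found in a slightly larger share of GFP-positive cells each time, at 92.8% against 90.7%, 96.3% against 92.6% and 96.2% against 88.7%. The lower mean under Cdk8-CycC depletion thus came with a slightly higher share of cells with the transcript.

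Gapdh2 (FBgn0001092), which with Gapdh1 encodes glyceraldehyde phosphate dehydrogenase, had the same order of directions as Ald1. It was unlisted in Control and had log2 folds of -0.22 under Cdk8-CycC, 0.23 under Med12 and 0.11 under combined depletion. It was found in 97.1% of GFP-positive against 95.2% of GFP-negative cells with Cdk8-CycC depletion, 97.9% against 95.3% under Med12 and 97.0% against 92.9% under combined depletion, per the authors' deposited tables. Detection was 92.9% or more in every set and slightly higher in GFP-positive cells each time, also where their mean was lower.

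Gapdh1 (FBgn0001091), the paralog, kept 1 direction. Its log2 fold was 0.11 in Control, 0.12 under Cdk8-CycC, 0.43 under Med12 and 0.32 under combined depletion. Control and Cdk8-CycC were nearly equal, and both libraries with Med12 depletion lay above them. The authors' deposited tables found it in 90.8% against 84.0% of cells in Control, 93.4% against 86.2% under Cdk8-CycC, 96.9% against 91.8% under Med12 and 96.5% against 90.4% under combined depletion. The paralogs thus differed in sign under Cdk8-CycC depletion, at -0.22 for Gapdh2 and 0.12 for Gapdh1. They are closely related copies, and no source used here says how reads matching both were counted, so the split between them is uncertain.

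Tpi (FBgn0086355), the isomerase that makes both triose phosphates usable, was listed in Control, Med12 and combined depletion. Its log2 folds were 0.17, 0.27 and 0.21, the order being Control, combined and Med12. The authors' deposited tables found it in 86.9% against 77.8%, 95.5% against 89.3% and 92.3% against 82.1% of cells. Pgk (FBgn0250906), the kinase of the lower steps that regains ATP, was listed in the same 3 tables, at 0.11, 0.25 and 0.16. Its shares in the authors' deposited tables were 89.6% against 84.3%, 96.6% against 91.4% and 95.1% against 88.2%. Neither gene was listed under Cdk8-CycC depletion, so neither has a value there.

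Eno (FBgn0000579), the enolase that forms phosphoenolpyruvate, was the highest member in every library. Its log2 fold was 0.32 in Control, 0.31 under Cdk8-CycC, 0.66 under Med12 and 0.59 under combined depletion, and the linear fold was 1.25 in Control and 1.58 under Med12 depletion. GFP-positive cells thus had more Eno already without any depletion, and the libraries with Med12 depletion lay well above Control and Cdk8-CycC. It held rank 26 of 5524 listed genes in Control, rank 48 of 6799 under Cdk8-CycC, rank 13 of 5568 under Med12 and rank 12 of 6377 under combined depletion. The authors' deposited tables found it in 95.1% against 90.6%, 97.9% against 93.6%, 98.7% against 95.6% and 97.6% against 91.8% of cells.

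PyK (FBgn0267385), the pyruvate kinase that ends the pathway, was listed in all 4 tables and passed the size rule in none. Its log2 fold was 0.02 in Control, 0.09 under Cdk8-CycC, 0.08 under Med12 and 0.14 under combined depletion. All 3 depletions lay above Control, Med12 no higher than Cdk8-CycC, so PyK did not follow the order of Eno and Gapdh1. In the authors' deposited tables it was found in 85.9% against 77.6% of cells in Control, 90.3% against 81.1% under Cdk8-CycC, 94.2% against 90.0% under Med12 and 92.8% against 86.3% under combined depletion.

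Ordered along the pathway, folds under Med12 depletion were 0.05 to 0.14 for Hex-A, Pgi and Pfk, 0.18 to 0.66 for the 6 genes from Ald1 to Eno, and 0.08 for PyK. Under combined depletion these ranges were 0.11 to 0.14, 0.11 to 0.59 and 0.14. The ranges were apart under Med12 depletion and overlapped under combined depletion, where Gapdh2 (0.11) lay among the upper genes. Folds are ratios within each gene, so they do not give the abundance of one enzyme transcript relative to another.

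**Figure D2:**
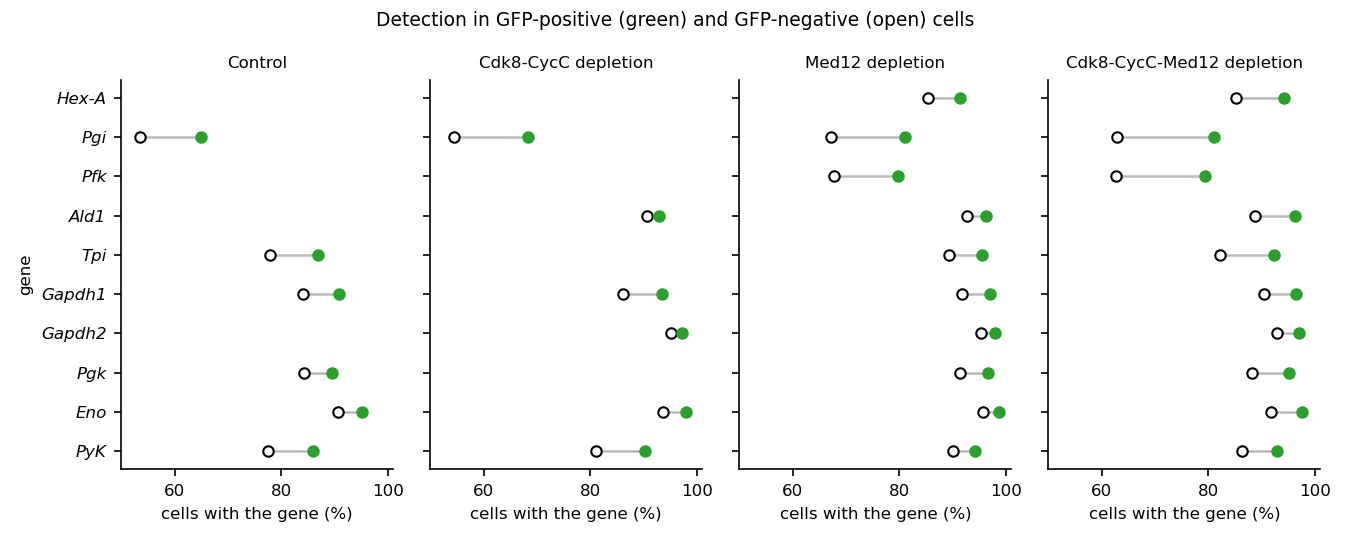
Each panel is 1 library and each line 1 glycolytic enzyme gene, with the share of GFP-positive cells (filled green) and GFP-negative cells (open) in which it was detected on the horizontal axis, in percent; genes without symbols were not listed. The filled symbol lies to the right of the open one for every listed gene, and Pgi and Pfk have the lowest shares.

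Differences from Control subtract the Control log2 fold from that of a depletion library, for genes in both tables. The 3 differences share that library and are not independent of one another. Under Med12 depletion all 6 members with a value lay above 0, where 69.6% of 4473 genes did, with a median of 0.13 against 0.02 for all genes. Eno (0.34) and Gapdh1 (0.32) held ranks 18 and 21 from the highest, followed by Pgk (0.14), Pgi (0.11), Tpi (0.10) and PyK (0.06). The central 95% of genes lay between -0.08 and 0.15, and Eno and Gapdh1 were the 2 members above that range. No member passed the size rule, which 0.38% of genes did.

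Under combined depletion the same 6 genes were above 0, where 71.3% of 4835 genes were, with a median of 0.10 against 0.02. Eno (0.27, rank 22) and Gapdh1 (0.21, rank 58) were again outside the central 95% of genes, which ran from -0.08 to 0.16. PyK (0.11) and Pgi (0.09) came next, and Pgk (0.05, rank 1114) and Tpi (0.04, rank 1634) were lowest of the 6. No member passed the size rule, against 0.414% of genes.

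Under Cdk8-CycC depletion the 4 members with a value lay near 0. PyK was at 0.06, Gapdh1 at 0.01, Eno at -0.01 and Pgi at -0.01, with a median of 0.00 against 0.03 for 5073 genes, of which 75.5% lay above 0. None passed the size rule, against 0.118% of genes. Eno and Gapdh1, the members of greatest difference under Med12 depletion, thus had nearly the same fold here as in Control. Ald1 (-0.20 under Cdk8-CycC depletion) and Gapdh2 (-0.22) have no difference because they were not listed in Control. Tpi (0.17 in Control) and Pgk (0.11) have none because they were not listed under Cdk8-CycC depletion. The values near 0 therefore hold only for the members listed in both.

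The direct comparisons of depletions do not use Control and take in Ald1 and Gapdh2. Those with Cdk8-CycC depletion leave out Hex-A, Pfk, Tpi and Pgk, which were not listed in that library. In Med12 relative to Cdk8-CycC depletion, 5 of 6 members lay above 0, where 44.8% of 5040 genes did, with a median of 0.33 against -0.01. Gapdh2 was at 0.45 (rank 11 from the highest), Ald1 at 0.37 (rank 17), Eno at 0.35 (rank 21), Gapdh1 at 0.31 (rank 27), Pgi at 0.13 and PyK at -0.01. Only Gapdh2 passed the size rule, which 0.417% of genes did, and Ald1 lay just under it. The 4 genes from Ald1 to Eno all lay above the central 95% of genes, which ended at 0.13.

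In combined relative to Cdk8-CycC depletion, all 6 members lay above 0, where 45.2% of 5633 genes did, with a median of 0.24 against 0.00. Ald1 was at 0.41 (rank 8) and Gapdh2 at 0.34 (rank 10), followed by Eno (0.28, rank 23), Gapdh1 (0.20, rank 51), Pgi (0.10) and PyK (0.05). Ald1 was the 1 member past the size rule, against 0.391% of genes. Both of these comparisons use the Cdk8-CycC library, so its low values for Ald1 and Gapdh2 enter both.

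In combined relative to Med12 depletion 4 of 10 members lay above and 6 below 0, where 52.3% of genes lay above, with a median of -0.04 against 0.00 for 4981 genes. Gapdh2 (-0.12), Gapdh1 (-0.11), Pgk (-0.09), Eno (-0.07), Tpi (-0.06) and Pgi (-0.02) were lower in the combined library, and Pfk (0.09), PyK (0.06), Hex-A (0.05) and Ald1 (0.03) were higher. Gapdh2 and Gapdh1 held ranks 62 and 67 from the lowest, below the central 95% of genes, which began at -0.09, and Pgk (rank 125) lay at its edge. No member passed the size rule, against 0.0602% of genes.

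**Figure D3:**
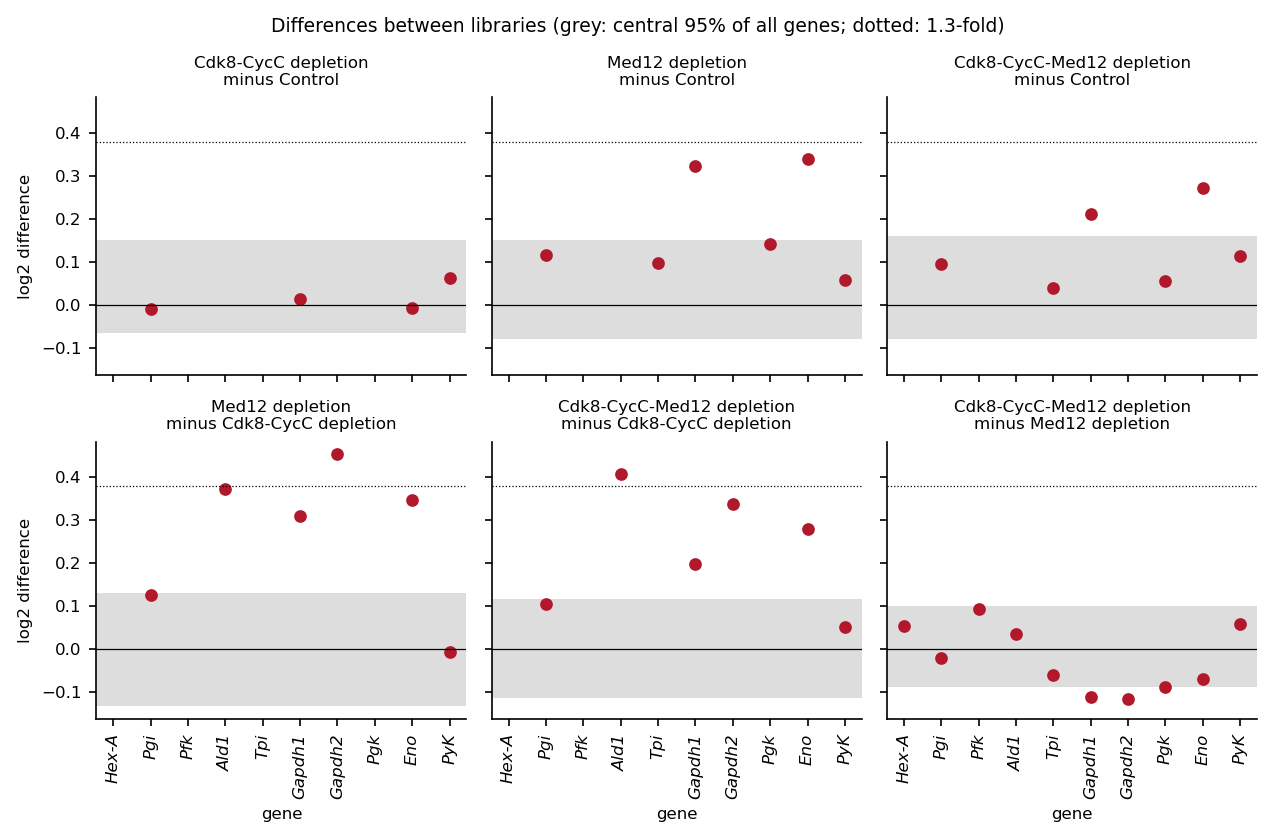
Red points give the log2 difference between the folds of 2 libraries (vertical axis) for each glycolytic enzyme gene listed in both (horizontal axis), with 1 panel per comparison, the central 95% of all genes in grey and the 1.3-fold limit dotted. Eno and Gapdh1 lie above the grey band when either library with Med12 depletion is compared with Control, and Ald1 and Gapdh2 join them when these are compared with Cdk8-CycC depletion.

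Detection shares gave a different picture of the same genes. Judged by the log2 ratio of shares, 0 of 6 members lay above 0 in Med12 relative to Control, where 24.0% of genes did, with a median of -0.03 against -0.09 for all genes. In combined relative to Control 4 of 6 lay above 0, where 40.0% of genes did (median 0.01 against -0.03). Members were found in 53.5% to 98.7% of cells, and a ratio of shares has little room near full detection. The odds ratio of the shares, a measure with room near full detection, put all 6 members above 0 in Med12 relative to Control (median 0.50 against 0.08 for all genes, 68.3% of which lay above 0) and all 6 in combined relative to Control (median 0.64 against 0.18, and 81.0%). In Cdk8-CycC relative to Control all 4 members with a value also lay above 0 (median 0.29 against 0.25, and 89.8%). By direction, the odds ratio thus did not set the libraries with Med12 depletion apart. It was chosen after the data were seen. For Eno the difference of log2 odds ratios from Control was 0.80 under Med12, 0.85 under combined and 0.66 under Cdk8-CycC depletion, where the difference in the fold was -0.01.

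Genes next to the pathway were described from 8 lists. Pglym78, the mutase between Pgk and Eno, was listed in Control (0.15), Med12 (0.19) and combined depletion (0.18), and Pfrx, which makes the activator of phosphofructokinase, lay between -0.01 and 0.01 in all 4 tables. Relative to Control, Pglym78 differed by 0.05 under Med12 and 0.03 under combined depletion, against 0.34 and 0.27 for its neighbour Eno. CG7059, a gene of the same list, was found in at most 9.8% of any cell set by the authors' deposited tables.

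Ldh, the lactate dehydrogenase that turns pyruvate into lactate, stood out by detection in both cell sets. The authors' deposited tables found it in 7.0% of GFP-positive against 3.7% of GFP-negative cells in Control, 24.8% against 16.1% under Cdk8-CycC, 38.2% against 24.5% under Med12 and 40.0% against 17.2% under combined depletion. Its share in GFP-negative cells was 4.35 times that of Control under Cdk8-CycC depletion, rank 4 of 5303 genes (median ratio 1.11), 6.62 times under Med12, rank 7 of 4569 (median 1.59), and 4.65 times under combined depletion, rank 11 of 4966 (median 1.52). In GFP-positive cells the ratios were 3.54 (rank 11 of 5308), 5.46 (rank 5 of 4574) and 5.71 (rank 7 of 4973). All 3 depletion libraries therefore exceeded Control also in GFP-negative cells, and with 1 library per genotype the library and the genotype cannot be told apart.

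Within libraries the log2 fold of Ldh was 0.00 in Control, 0.02 under Cdk8-CycC, 0.04 under Med12 and 0.15 under combined depletion. The combined depletion was the highest, also in the gap between the cell sets, at 22.8 percentage points against 3.3 in Control, 8.7 under Cdk8-CycC and 13.7 under Med12. Gpdh1, the glycerol phosphate dehydrogenase that regains NAD from the triose phosphate branch, lay between 0.01 and 0.03 in all libraries. Relative to Control, the list of lactate and glycerol phosphate genes had 3 of 3, 1 of 2 and 3 of 3 members above 0 under Cdk8-CycC, Med12 and combined depletion, with medians of 0.02, 0.02 and 0.09, and 75.5%, 69.6% and 71.3% of all genes were above 0. Gpdh3 was its highest member under Cdk8-CycC depletion (0.03) and Ldh in the other depletions (0.04 and 0.15), and Gpdh1 was the lowest each time (0.01, -0.01 and 0.00).

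**Figure D4:**
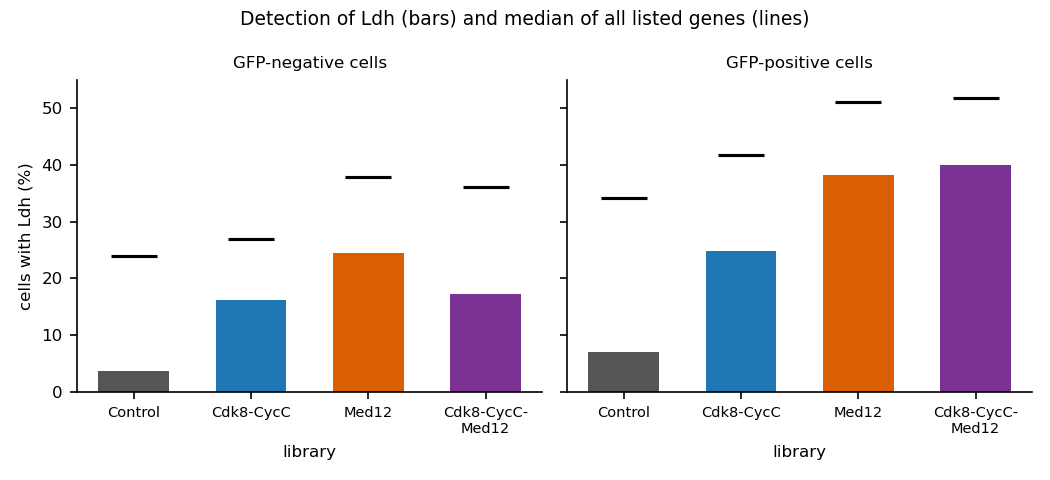
Bars give the share of cells, in percent, in which Ldh was detected in each library, GFP-negative cells on the left and GFP-positive cells on the right, and the horizontal lines give the median share over all genes listed in that table. Ldh stands at 3.7% and 7.0% in Control and between 16.1% and 40.0% in the depletion libraries, and the medians lie between 23.9% and 51.8%.

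The tricarboxylic acid cycle list, which burns the acetyl groups made from pyruvate, lay mostly above 0. Relative to Control, 15 of 15 measured genes were above 0 under Cdk8-CycC (median 0.05), 12 of 12 under Med12 (median 0.04) and 12 of 14 under combined depletion (median 0.10), where 75.5%, 69.6% and 71.3% of all genes were. The highest were CG5214 (0.16), CG5028 (0.11) and Fum1, the fumarase (0.17), and the lowest SdhB (0.01), Scsalpha1 (0.01) and SdhC (-0.02). The medians of all genes were 0.03, 0.02 and 0.02. The list median was no lower under Cdk8-CycC than under Med12 depletion, while that of the enzymes was 0.00 over 4 genes and 0.13 over 6. Within each list the medians cover different genes, so they are not comparable between depletions. The difference between these lists was not tested.

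The pentose phosphate list, the branch that makes NADPH and ribose, had 6 of 6, 5 of 6 and 5 of 6 genes above 0 and medians of 0.06 in each depletion, against the same shares of all genes (75.5%, 69.6% and 71.3%). Taldo, the transaldolase, was highest under Cdk8-CycC (0.09) and Med12 (0.11) and Pgd, which makes NADPH, under combined depletion (0.12), and Rpi was lowest each time (0.01, -0.03 and 0.00). The list of pyruvate entry into mitochondria had 4 of 4, 2 of 4 and 4 of 4 genes above 0, with medians of 0.05, 0.01 and 0.02, beside the same shares. Pdha, a subunit of pyruvate dehydrogenase, was its highest member in all 3 (0.09, 0.03 and 0.08), and Pdp (0.01), Pdk (-0.01) and Mpc1 (0.01) were lowest.

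The list of sugar uptake, trehalose and glycogen had 7, 6 and 6 of 8 genes above 0, near the shares of all genes (75.5%, 69.6% and 71.3%), and medians of 0.02, 0.03 and 0.04. Treh, the trehalase (0.05), GlyS, the glycogen synthase (0.10), and UGP (0.10) were highest under Cdk8-CycC, Med12 and combined depletion, and Pgm1, a phosphoglucomutase, was lowest each time (-0.02, -0.05 and -0.03). The glucose transporter gene Glut1 lay between -0.01 and 0.02 in all libraries. Of the gluconeogenesis list only PCB and Pepck2 were listed in Control, PCB at 0.12, 0.06 and 0.12 and Pepck2 at -0.02, -0.01 and -0.04 relative to it. No gene of these lists passed the size rule in any difference from Control.

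The regulator list had 9 of 10, 6 of 10 and 6 of 9 genes above 0, beside 75.5%, 69.6% and 71.3% of all genes, and medians of 0.03, 0.01 and 0.01. ERR, the receptor that drives these enzymes in larvae, had log2 folds of -0.03, -0.01, 0.00 and -0.03 in Control, Cdk8-CycC, Med12 and combined depletion, and the hypoxia factor gene sima was not listed in Control and lay at -0.01, 0.04 and 0.05 in the depletions. The TOR inhibitor scyl was the 1 gene of the list past the size rule, at -0.46 under Med12 and -0.56 under combined depletion relative to Control. Of the remaining extremes, chrb, the other TOR inhibitor, was highest under Cdk8-CycC (0.18), Mondo under Med12 (0.06) and chico under combined depletion (0.03), and foxo was lowest under Cdk8-CycC (-0.05). Under Med12 depletion chrb lay at -0.36 relative to Control, short of the rule, at rank 6 from the lowest of 4473 genes. It was not listed under combined depletion. In Med12 relative to Cdk8-CycC depletion chrb passed the rule at -0.54, the lowest value of 5040 genes. Within libraries, the transcription factor gene Myc passed it under Med12 (-0.40, beside -0.32 in Control, -0.25 under Cdk8-CycC and -0.31 under combined depletion) and scyl under combined depletion (-0.47).

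**Figure D5:**
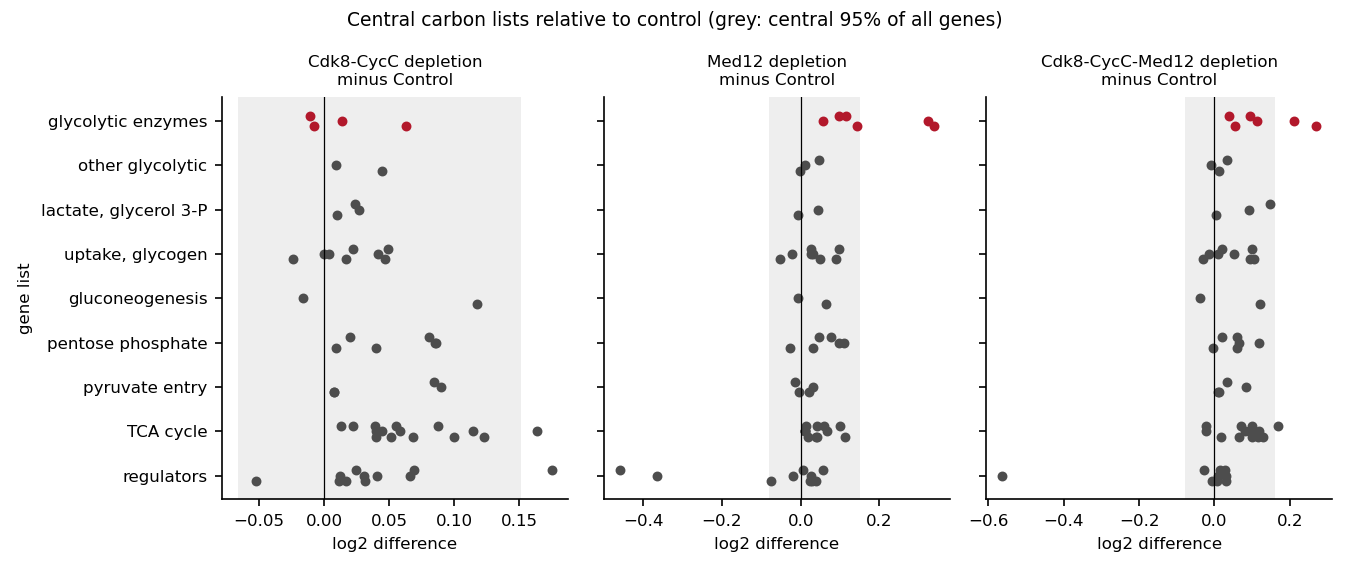
Points give the log2 difference from Control (horizontal axis) of each measured gene of 9 lists (vertical axis), with 1 panel per depletion, the glycolytic enzymes in red and the central 95% of all genes in grey. Glycolytic enzymes extend to 0.34 under Med12 and 0.27 under combined depletion, and the lowest of the regulators there is scyl (-0.46 and -0.56). The horizontal scale differs between panels.

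Among the 4 members listed in all tables, Eno had the widest range of log2 folds over the 4 libraries, at 0.35, and Gapdh1 followed with 0.32. By the Euclidean distance over the 4 log2 folds, the 5 of 4300 genes nearest to Eno were GstT3 (distance 0.16), a glutathione transferase gene, CG7675 (0.18), Vajk3 (0.19), fabp (0.28), a fatty acid binding protein gene, and CG17032 (0.28). GstT3 had log2 folds of 0.28, 0.32, 0.62 and 0.44 in Control, Cdk8-CycC, Med12 and combined depletion. Gapdh1 came at place 37 in this order. Genes outside glycolysis thus lay nearer to Eno than any other of the 4 members listed in all tables. The remaining members were not placed in this order.

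Few genes shared the directions of Ald1 and Gapdh2 at a size of 0.1 or more in each library. Lower by at least 0.1 on the log2 scale under Cdk8-CycC depletion and higher by at least 0.1 in both libraries with Med12 depletion were 6 of 4975 genes listed in these 3 tables, or 0.121%. The limit was set after the values were seen. The others were the small heat shock gene Hsp23 (-0.38, 0.21 and 0.34), CG17919 (-0.27, 0.41 and 0.23), CG9691 (-0.17, 0.26 and 0.26) and the cuticle protein gene Cpr49Ah (-0.11, 0.32 and 0.17). No gene of the neighbouring metabolic lists reached this limit. Below it, some had the same directions, among them Gyg (-0.05, 0.06 and 0.07), GlyS (-0.005, 0.071 and 0.072) and UGP (-0.002, 0.042 and 0.056). The small number of genes thus depends on the limit.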

How the data were processed

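Cells of wing discs went through 10x Genomics library preparation, per the labels' protocols, and the data through Cell Ranger 3.0.2 and Seurat, per the submitters' processing notes. The sources used here do not state a Seurat version, a genome build, filters on cell quality or the handling of doublets. Every cell set had nub in 100% of cells, so the tables hold a nub-positive subset of the discs. The deposited fold was taken as a natural log with a pseudocount, as Seurat columns of the name in the file headers usually are, so it understates differences of weakly expressed genes. Its base is not stated, and another base would scale all log2 values alike. Its sign came from the column naming the higher cell set, because a signed column lacked 853 values in the combined depletion. Detection is deposited as a fraction of cells. The deposited p-value treats cells as replicates and served only to check the listing limit of 0.01. Cell numbers and depth are unknown, so no interval was computed.

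Folds were converted to log2 and subtracted between libraries (Python 3.11.15, pandas 2.3.3), a step tested on tables with known differences. Counts past the size rule and ranks of differences use genes detected in at least 10% of one cell set. Members, lists and rules were chosen with earlier results of these data known. Named are all 10 members, the highest and lowest gene of each list, list genes past the size rule and the 5 genes nearest to the member of widest range. Other genes were chosen after their values were seen. Alternatives covered base, centring, detection measures, unlisted genes and limits.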

Additional observations from a re-analysis of the deposited data

Results flagged for a closer look

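Ald1 and Gapdh2 went in opposite directions in different depletion libraries, and with 1 library per genotype the difference was not tested. Ald1 lay at -0.20 on the log2 scale under Cdk8-CycC depletion and at 0.18 under Med12 depletion, a difference of 0.37, and at 0.21 under combined depletion, a difference of 0.41. Gapdh2 lay at -0.22 under Cdk8-CycC depletion against 0.23 under Med12 depletion, a difference of 0.45, and against 0.11 under combined depletion, a difference of 0.34. All 4 differences rest on the same Cdk8-CycC library. The limit of 0.1 in each direction was set after the data were seen.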

How the results depend on the processing

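No paired analysis was possible because each genotype has 1 library, and for the same reason no library could be left out. A detection minimum of 25% or none changed no count of enzyme genes past the size rule. With a fold limit of 1.2 the counts became 1 in Control, 1 under Cdk8-CycC, 3 under Med12 and 2 under combined depletion within libraries, 2 for Med12 and 1 for combined relative to Control, and 4 for Med12 and 3 for combined relative to Cdk8-CycC depletion. With a limit of 1.5 they became 1 within the Med12 library and 0 for both comparisons with Cdk8-CycC depletion. With the fold read as log2 they became 1 within the Med12 library and 0 for both comparisons with Cdk8-CycC depletion. By the ratio of detection shares they became 0 within the Med12 and combined libraries and 0 for both comparisons with Cdk8-CycC depletion. Without subtracting Control they became 2 for Med12 and 1 for combined depletion.

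With the fold read as log2, the enzyme medians were 0.08, 0.03, 0.14 and 0.11 within Control, Cdk8-CycC, Med12 and combined libraries, 0.09 and 0.07 for Med12 and combined relative to Control, 0.23 and 0.16 for these relative to Cdk8-CycC, and -0.03 for combined relative to Med12. Centred on all genes, they were 0.02, 0.18 and 0.13 within the 3 depletion libraries, -0.02, 0.11 and 0.08 for Cdk8-CycC, Med12 and combined relative to Control, and 0.33 for Med12 relative to Cdk8-CycC. By the ratio of detection shares, they were 0.13, 0.09, 0.08 and 0.11 within the 4 libraries, -0.03 and 0.01 for Med12 and combined relative to Control, -0.03 and 0.03 relative to Cdk8-CycC, and 0.04 for combined relative to Med12, so the direction turned for Med12 relative to Control and to Cdk8-CycC and for combined relative to Med12. The same ratio centred on its median gave -0.08, 0.06 and 0.04 relative to Control. By the odds ratio, added after the data were seen, they were 0.86, 0.99, 1.13 and 1.38 within libraries, 0.29, 0.50 and 0.64 relative to Control, 0.26 and 0.42 relative to Cdk8-CycC, and 0.14 for combined relative to Med12, where the direction turned. Unlisted genes set to 0 gave -0.06 for Cdk8-CycC and 0.11 for combined depletion, and no subtraction of Control gave 0.05, 0.20 and 0.15. Of 70 single-gene values, 22 changed sign by the ratio of detection shares, among them Ald1 and Gapdh2 under Cdk8-CycC depletion, 10 by the odds ratio, again with these 2, 2 by centring and 0 with the fold read as log2. The cause of these changes was not tested. The unknown depth and the missing replicates limit every value.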
